A study of Mus musculus with 4 samples.

Results

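The genes described here are 40 genes of sphingolipid and glycerophospholipid metabolism, taken by symbol from the 16051 genes of the deposited expression table, where each of the 40 was found once. They are 11 genes of sphingolipid synthesis, 5 of sphingolipid breakdown, 6 that make or sense sphingosine 1-phosphate, 13 of glycerophospholipid synthesis and 5 of glycerophospholipid remodelling. Their mRNA was measured in 3T3-L1 cells, a mouse line of NIH SWISS origin that can be turned into adipocytes in culture and that the labels describe as murine adipocytes from embryo tissue. Differentiated cells were exposed for 48 h to 100 μM risperidone, a second-generation antipsychotic, or to the vehicle dimethyl sulfoxide (DMSO), the control that the labels call untreated. Each treatment has 2 libraries, and each library was prepared from RNA pooled from 3 cultures, so the values given here as SD are spreads between pools and not between single cultures. The libraries hold 15883712 to 16374119 estimated read counts.

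Several checks of the libraries bear on what follows. Adipoq, Cfd and Lep, which encode adiponectin, adipsin and leptin of mature fat cells, had 5 or fewer counts in every library, and Plin1, a lipid droplet protein, had 9 and 14 counts with DMSO and 1 in each risperidone library. Cebpa, a regulator of adipogenesis, had 1 to 5 counts. Of the other adipocyte markers Fabp4 had 492 to 1360 counts, Pparg 345 to 388, Plin4 2178 to 4447, Lpl 11967 to 15569 and Dgat2 509 to 520, so defining markers of the labelled cell type were in part near 0 and in part well detected. The 12 adipocyte markers summed to 437 and 492 FPKM (fragments per kilobase of transcript, scaled by the number of mapped reads) with DMSO and to 302 and 320 FPKM with risperidone, and 3 of the 6 tested were lower. The 6 preadipocyte or fibroblast markers summed to 1490 and 1445 FPKM with DMSO and to 1715 and 1711 FPKM with risperidone, with 4 higher and 1 lower, or 3 higher without risperidone replicate 2, where Ly6a lost its call. Risperidone replicate 2 stood apart, since 11 kidney tubule markers summed to 192 FPKM in it and to between 1.72 and 2.72 FPKM in the other 3 libraries. The extraction text of the labels names retina, and of 9 retina markers the 6 found in the table summed to 0.86 to 1.28 FPKM. The part of these marker shifts in the results was not tested, and changes of calls without risperidone replicate 2 are given beside the genes. In bulk RNA, fewer cells of a type and less RNA per cell cannot be told apart.

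Sphingolipids are built from serine and palmitoyl-CoA. Serine palmitoyltransferase joins them, a reductase, the ceramide synthases and a desaturase turn the product into ceramide, and ceramide is then converted into sphingomyelin or into glucosylceramide, the root of the glycosphingolipids. Sphingomyelinases and ceramidases run the route backwards to sphingosine, whose phosphorylated form signals through its own receptors or is cleaved for good by a lyase. Glycerophospholipids are made by the Kennedy pathways for phosphatidylcholine and phosphatidylethanolamine, by base exchange for phosphatidylserine and from CDP-diacylglycerol for cardiolipin, and lysophospholipid acyltransferases then exchange their fatty acids. In fat cells phosphatidylcholine also coats the lipid droplet.

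Risperidone was compared with DMSO on the counts with edgeR's quasi-likelihood test, adjusted by Benjamini-Hochberg over the 10243 genes whose FPKM averaged 1 or more over the 4 libraries, and SE is the standard error of a log2 fold change. Of the 40 genes, 39 passed this limit and Lpcat2 did not, and the 39 had means between 1.25 FPKM (S1pr1) and 181 FPKM (Degs1). At an adjusted p under 0.05, 11 of the 39 rose and 17 fell with risperidone, or 28.2% and 43.6%, where 32.1% of all genes tested rose and 32.2% fell. In either direction 28 of 39 were called, where 64.3% of all genes tested were, and nothing is read from this count. Their median log2 fold change was -0.08, against 0.00 over all genes tested, and 0 of the 39 reached an absolute log2 fold change of 1. The FPKM values of the treatments did not overlap for 34 of the 39, including all 28 called genes, and did not overlap for 82.2% of all genes tested. Without risperidone replicate 2, 26 of the 28 calls stood, in the same direction, and those of Ugcg and Chkb were lost. Without DMSO replicate 1, and likewise without DMSO replicate 2, the calls were 10 higher and 11 lower, and 20 of the 28 genes were called whichever library was left out. In the fits without a DMSO replicate, fewer of all genes tested were called as well. With DESeq2 10 of the 39 were higher and 10 lower, beside 2639 higher and 2653 lower of all 10243 genes tested. The larger share of lower calls among the 39 was thus not seen with DESeq2. The edgeR test used TMM normalization, under which the median of all genes is 0.00. With library size as the only scaling that median is -0.09, so a gene with slightly lower FPKM, such as Sgpp1 or Pgs1, can have a log2 fold change above 0.

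**Figure D1:**
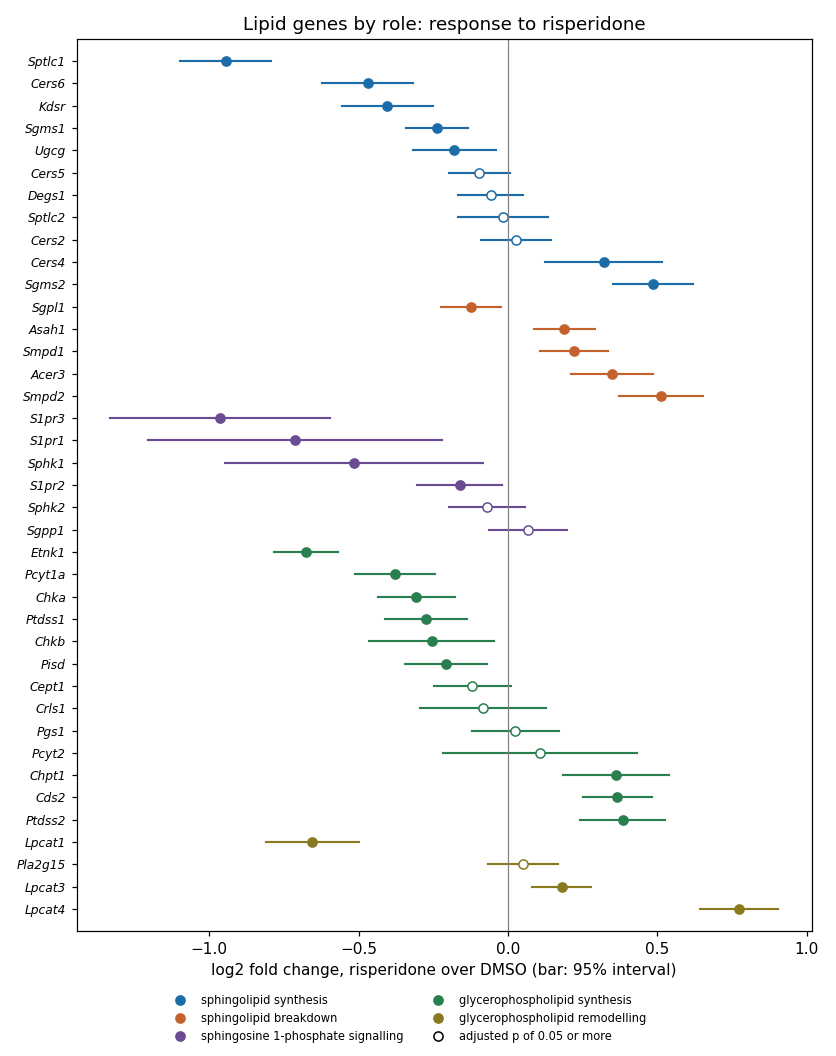
Log2 fold change of risperidone over DMSO (x axis) for the 39 tested genes (y axis), coloured by role, with 95% intervals from edgeR's quasi-likelihood fit over 2 libraries per treatment. Filled points are genes at an adjusted p under 0.05. All 4 called genes of sphingosine 1-phosphate signalling lie left of 0, and 4 of the 5 breakdown genes lie right of it.

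By role, the calls had the following directions, to be read against the 32.1% of all genes tested that rose and the 32.2% that fell. In sphingolipid synthesis 5 of 11 genes fell and 2 rose (median log2 fold change -0.10), and with 1 library left out 4 to 5 fell and 1 to 2 rose. In sphingolipid breakdown 4 of 5 rose and 1 fell (median 0.22), with 3 to 4 higher and 0 to 1 lower when 1 library was left out, 2 higher with limma on log2(FPKM + 1) and 1 higher with limma on log2(TPM + 1). Of the genes that make or sense sphingosine 1-phosphate, 4 of 6 fell and 0 rose (median -0.34, with none of the 6 above 0.07), but S1pr3 alone was called without DMSO replicate 1, without DMSO replicate 2 or without risperidone replicate 1, so that 4 became 1. Glycerophospholipid synthesis had 6 of 13 lower and 3 higher (median -0.12), and among the 4 tested remodelling genes 2 rose and 1 fell (median 0.12). With limma on log2(TPM + 1) the counts were 9 lower and 0 higher in sphingolipid synthesis, 6 lower in sphingosine 1-phosphate signalling, and 8 lower and 0 higher in glycerophospholipid synthesis, and with limma on log2(FPKM + 1) they were 7 lower and 1 higher, 4 lower, and 7 lower and 3 higher. The 32.1% and 32.2% hold only for the edgeR test on all 4 libraries. Of all 10243 genes tested, limma on log2(TPM + 1) called 5292 lower and 1536 higher. On log2(FPKM + 1) it called 3975 lower and 2420 higher. The differences between roles were not tested.

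Promoter sequence was examined for 36 of the genes (not for Asah1, Pcyt2, Ptdss1 and S1pr1), for which RefSeq (GRCm38.p6) windows from 250 bases before to 50 bases after a start site were at hand, 58 windows in all because several genes have more than 1 start and such windows can overlap. The letters CACGTG, the E-box that MITF/TFE and USF factors can bind, read the same on both strands and occurred in 8 of the 58 windows (13.8%), compared with 10.2% of the windows of tested genes and 7.15% of all 32851 windows. These windows belong to 7 genes, of which Cers6 and Sphk1 fell, Smpd2 and Sgms2 rose, and Cers2, Degs1 and Crls1 were not called. The letters TCACNCCAC, a sterol regulatory element searched on both strands, occurred at 1 position, upstream of Pcyt1a, that 2 of the 58 windows share (3.45%), compared with 1.07% of the windows of tested genes and 1.24% of all windows. CCAAT, the NF-Y box, also on either strand, was in 39.7% of the 58 windows and 38.4% of those of tested genes. TTGCNNNAA, which is 1 base too long to match the consensus C/EBP site, was found for Cept1 alone and TGACGTCA, the cAMP response element, for S1pr2 and Sphk2 alone, each in 3.45% of the 58 windows, compared with 7.39% and 3.15% of those of tested genes. The stretches around the CACGTG and TCACNCCAC matches in the 5 called genes that hold one of these motifs are shown to let the matched letters, in capitals, be read in their surroundings, on the gene's strand and upstream of 1 of its start sites. Those of Smpd2 and Pcyt1a lie outside the span of the gene, whereas those of Cers6, Sgms2 and Sphk1 lie inside it, upstream of an alternative start. Of the 58 windows, 36 matched, in sense, the first part of a GENCODE M21 transcript of the gene. A match of letters is not evidence of a bound site.
Cers6, chr2:68861407-68861436, plus strand: cggccaggctgcCACGTGacaggcgaggcg
Sgms2, chr3:131489142-131489171, minus strand: ggcccaggttagCACGTGaaatattgttgt
Smpd2, chr10:41490509-41490554, minus strand: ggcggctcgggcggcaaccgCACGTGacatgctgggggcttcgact
Sphk1, chr11:116532337-116532366, plus strand: catacaccggggCACGTGtgcattttcacc
Pcyt1a, chr16:32430785-32430833, plus strand: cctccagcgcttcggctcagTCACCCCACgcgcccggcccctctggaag

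In the entry to sphingolipid synthesis, the subunits of serine palmitoyltransferase separated. Sptlc1 (NCBI Gene 268656, chr13:53332748-53377417 in GRCm38.p6, as are all positions given), whose product is needed for the activity of the enzyme together with Sptlc2, measured 16.96 and 15.81 FPKM in the DMSO libraries and 7.76 and 8.26 FPKM in the risperidone libraries. It fell by 0.95 on the log2 scale (SE 0.0684, edgeR's adjusted p = 7.8e-07), the largest decrease among the synthesis genes. Sptlc2, the catalytic subunit, measured 12.73 and 11.45 FPKM with DMSO and 11.41 and 10.98 FPKM with risperidone. The log2 fold change of Sptlc2 was -0.02, with a 95% interval of -0.17 to 0.13, so a change as large as that of Sptlc1 lies outside the interval. With offsets for gene length it was 0.10 (edgeR's adjusted p = 0.203), and after rescaling to TPM it was -0.24 and past the threshold (limma's adjusted p = 0.0241). Kdsr, the reductase of the next step, had 14.50 and 14.08 FPKM with DMSO and 10.83 and 9.83 FPKM with risperidone, a log2 fold change of -0.40 (SE 0.0692, edgeR's adjusted p = 0.000408).

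Of the 4 ceramide synthases among the 40 genes, which attach fatty acids of different chain length, Cers6 fell, Cers4 rose, and Cers2 and Cers5 did not pass the test. Cers2, which prefers very long chains, was the main transcript, with 62.2% and 63.4% of the summed FPKM of these 4 in the DMSO libraries and 65.7% and 66.5% in the risperidone libraries. Its level was 171 and 173 FPKM with DMSO and 156 and 172 FPKM with risperidone, and its log2 fold change of 0.03 (95% interval -0.09 to 0.14) did not pass the test. Cers6, which makes ceramides with the shorter palmitoyl chain, had 30.81 and 28.32 FPKM with DMSO and 16.91 and 21.15 FPKM with risperidone. It fell, with a log2 fold change of -0.47 (SE 0.0694, edgeR's adjusted p = 0.00014), and its share of the family went from 11.2% and 10.4% to 7.11% and 8.20%. Cers4, the least abundant of these 4, rose from 5.42 and 5.04 FPKM to 5.77 and 6.40 FPKM, a log2 fold change of 0.32 with an adjusted p of 0.00854 in edgeR, which was 0.131 without DMSO replicate 2 and 0.0656 with DESeq2, and after rescaling to TPM the value was 0.07 (limma's adjusted p = 0.582). Cers5 had 67.86 and 66.42 FPKM with DMSO and 58.77 and 58.75 FPKM with risperidone. For Cers5 the log2 fold change of -0.10 missed the threshold (edgeR's adjusted p = 0.0944) and passed it with library size as the only scaling (-0.19, edgeR's adjusted p = 0.00436) and with offsets for gene length (-0.13, edgeR's adjusted p = 0.0200). Degs1, the desaturase that completes ceramide and the most abundant of all 39 genes, had 183 and 199.97 FPKM with DMSO and 170.2 and 172 FPKM with risperidone. Although these values did not overlap, the log2 fold change of -0.06 (95% interval -0.17 to 0.05) did not pass the test. Degs1 was called lower with library size as the only scaling (-0.15, edgeR's adjusted p = 0.02185). After rescaling to TPM it was also called lower (-0.30, limma's adjusted p = 0.000888).

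At the exits from ceramide, the sphingomyelin synthases moved in opposite directions. Sgms1, the synthase of the Golgi, had 41.11 and 43.18 FPKM with DMSO and 31.66 and 33.54 FPKM with risperidone, and fell by 0.24 on the log2 scale (SE 0.0467, edgeR's adjusted p = 0.00103). Sgms2, the synthase that also acts at the plasma membrane, rose from 4.67 and 4.71 FPKM to 6.04 and 6.29 FPKM, a log2 fold change of 0.48 (SE 0.0610, edgeR's adjusted p = 4.34e-05), which after rescaling to TPM was 0.23 (limma's adjusted p = 0.0612). The share of Sgms2 in the summed FPKM of the pair was thus 10.2% and 9.84% with DMSO and 16.0% and 15.8% with risperidone, and Sgms1 remained the larger part in every library. Ugcg, the glucosylceramide synthase, had 9.44 and 9.95 FPKM with DMSO and 8.22 and 7.82 FPKM with risperidone. Its log2 fold change of -0.18 had an adjusted p of 0.0275 in edgeR's test, which rose to 0.0525 without DMSO replicate 1, 0.177 without DMSO replicate 2, 0.147 without risperidone replicate 2 and 0.0993 with offsets for gene length.

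**Figure D2:**
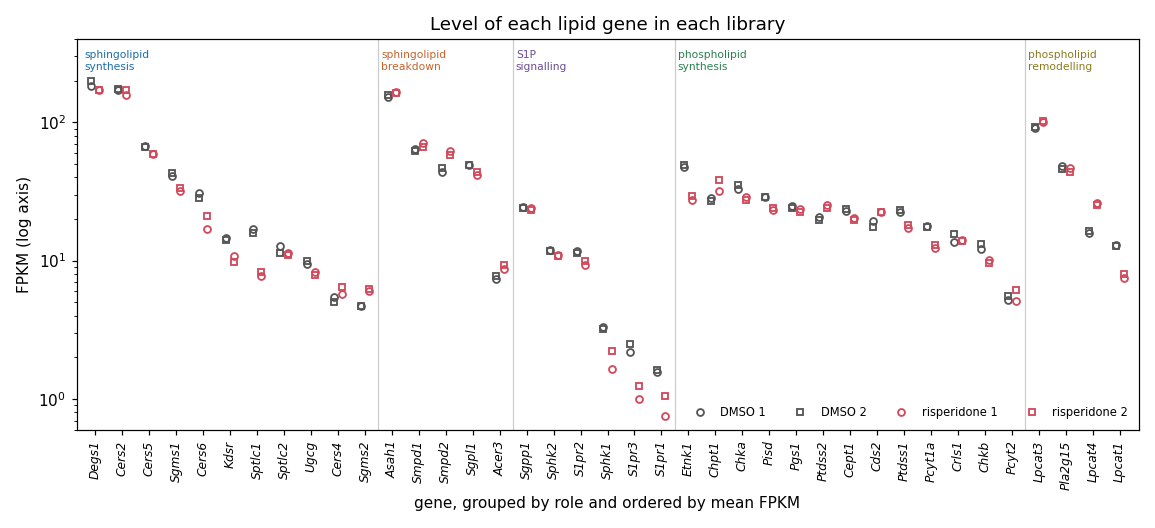
FPKM in each of the 4 libraries (y axis, log scale) for the 39 tested genes (x axis), grouped by role and ordered by mean within a role. Grey symbols are DMSO and red symbols risperidone, with circles for replicate 1 and squares for replicate 2. The levels span from under 1 FPKM for S1pr1 to nearly 200 FPKM for Degs1, and the treatments stand visibly apart for Sptlc1, S1pr3, Etnk1, Lpcat1 and Lpcat4, among others.

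Sphingolipid breakdown was the role with the largest share of higher calls in edgeR's test on all 4 libraries (4 of 5 genes, against 32.1% of all genes tested). Smpd2 (NCBI Gene 20598, chr10:41487172-41490370), a neutral sphingomyelinase, had 43.70 and 46.60 FPKM with DMSO and 62.21 and 58.42 FPKM with risperidone. This was a log2 fold change of 0.51 (SE 0.0637, edgeR's adjusted p = 4.01e-05), which stayed between 0.46 and 0.56 with any 1 library left out. Smpd1, the acid sphingomyelinase of lysosomes, rose less, from 64.08 and 61.72 FPKM to 71.01 and 66.16 FPKM, and its log2 fold change was 0.22 (SE 0.0521, edgeR's adjusted p = 0.00329). Asah1, the acid ceramidase of the same compartment, had 152 and 157 FPKM with DMSO and 166 and 164 FPKM with risperidone. Its log2 fold change of 0.19 had an adjusted p of 0.00438 in edgeR's test, or 0.0648 without DMSO replicate 1. Acer3, an alkaline ceramidase, rose from 7.42 and 7.75 FPKM to 8.75 and 9.33 FPKM, a log2 fold change of 0.35 (SE 0.0623, edgeR's adjusted p = 0.000546). After rescaling to TPM, which put the median of all genes at -0.22, the log2 fold changes were 0.27 for Smpd2, 0.10 for Acer3, -0.02 for Smpd1 and -0.05 for Asah1. All 4 lay above that median, but Smpd1 and Asah1 were not above 0 on that scale. Only Smpd2 was still called higher there (limma's adjusted p = 0.00171, against 0.314 for Acer3).

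The last enzyme of this route, Sgpl1, which cleaves sphingosine 1-phosphate irreversibly, went the other way. It had 49.42 and 48.92 FPKM with DMSO and 41.49 and 43.35 FPKM with risperidone, a log2 fold change of -0.12 with an adjusted p of 0.0343 in edgeR's test. That call was lost in 8 of the alternatives, among them the fits without DMSO replicate 1 (adjusted p = 0.204), DMSO replicate 2 (0.131) or risperidone replicate 1 (0.105), all from edgeR, and with offsets for gene length the log2 fold change was -0.05.

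The receptors of sphingosine 1-phosphate couple to G proteins. S1pr4 had 0 and 1 counts with DMSO and 0 in each risperidone library, and was not tested. S1pr1, S1pr2 and S1pr3, the receptors tested among the genes described here, were lower with risperidone in edgeR's test with all libraries. S1pr2 was the main one, at 11.65 and 11.34 FPKM with DMSO and 9.30 and 9.94 FPKM with risperidone, and made up 75.6% and 73.4% of the summed receptor FPKM with DMSO against 84.1% and 81.2% with risperidone. S1pr3 (NCBI Gene 13610, chr13:51408618-51422797) had 155 and 172 counts with DMSO and 71 and 86 with risperidone, or 2.18, 2.49, 1.0 and 1.24 FPKM. The log2 fold change of S1pr3 was -0.96, close to that of Sptlc1 (SE 0.167, edgeR's adjusted p = 0.000428) and lay between -1.11 and -0.83 with any 1 library left out. S1pr1 had 75 and 74 counts with DMSO and 36 and 49 with risperidone, a log2 fold change of -0.71 (SE 0.223, edgeR's adjusted p = 0.0158). The decreases of S1pr1 and S1pr2 rest on few counts or on a small difference. Without DMSO replicate 1, DMSO replicate 2 or risperidone replicate 1, edgeR's adjusted p was 0.0571, 0.0623 and 0.0812 for S1pr1 and 0.266, 0.120 and 0.234 for S1pr2, whose log2 fold change was -0.16 with all libraries (edgeR's adjusted p = 0.0459). With DESeq2 the adjusted p was 0.0782 for S1pr1 and 0.306 for S1pr2.

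The kinases that make the ligand differed in level and in what could be measured of their response. Sphk2 was the more abundant one, with 11.92 and 11.66 FPKM with DMSO and 11.01 and 10.87 FPKM with risperidone, and its log2 fold change of -0.07 (95% interval -0.20 to 0.06) did not pass the test. Its exons overlap, on the other strand, those of Rpl18 and Dbp, whose counts rose from 5882 and 6085 to 11245 and 9804 and from 369 and 319 to 878 and 900, and without known strand the reads in the overlap cannot be told apart. Sphk1 had 102 and 101 counts with DMSO and 57 and 76 with risperidone, or 3.30, 3.19, 1.65 and 2.24 FPKM. The decrease was -0.51 on the log2 scale (SE 0.195, edgeR's adjusted p = 0.0379). Without risperidone replicate 1 it was -0.32 (edgeR's adjusted p = 0.178), and edgeR's adjusted p was 0.118 with DMSO replicate 1 left out and 0.125 with DMSO replicate 2 left out. Sgpp1, the phosphatase that returns the ligand to sphingosine, had 24.25 and 23.89 FPKM with DMSO and 24.00 and 23.23 FPKM with risperidone, and a log2 fold change of 0.07 (95% interval -0.06 to 0.20).

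In the Kennedy pathways the kinases that trap ethanolamine and choline fell together. Etnk1 (NCBI Gene 75320, chr6:143166866-143208546), an ethanolamine kinase, had 47.30 and 48.90 FPKM with DMSO and 27.37 and 29.13 FPKM with risperidone, the largest decrease in glycerophospholipid synthesis at a log2 fold change of -0.68 (SE 0.0487, edgeR's adjusted p = 7.59e-07). Chka, a choline kinase, fell from 32.99 and 35.48 FPKM to 28.77 and 27.46 FPKM, by 0.31 on the log2 scale (SE 0.0584, edgeR's adjusted p = 0.000848). Chkb, the other choline kinase, measured 12.04 and 13.10 FPKM with DMSO and 10.05 and 9.62 FPKM with risperidone. The share of Chka in the pair was close to constant, between 73.0% and 74.1% in the 4 libraries. For Chkb the log2 fold change of -0.26 had an adjusted p of 0.0353 in edgeR's test, which was 0.0925 without DMSO replicate 1, 0.320 without DMSO replicate 2 and 0.102 without risperidone replicate 2.

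Downstream of the kinases, the response split. Pcyt1a (NCBI Gene 13026, chr16:32430921-32475065), the rate-limiting enzyme of phosphatidylcholine synthesis, which makes CDP-choline, had 17.75 and 17.44 FPKM with DMSO and 12.33 and 13.04 FPKM with risperidone and fell by 0.38 on the log2 scale (SE 0.0610, edgeR's adjusted p = 0.000264). Pcyt2, its counterpart for ethanolamine, had 5.18 and 5.53 FPKM with DMSO and 5.11 and 6.18 FPKM with risperidone. The log2 fold change of Pcyt2 was 0.11 (95% interval -0.22 to 0.43) and -0.06 without risperidone replicate 2, and its values overlapped between treatments. Of the transferases that finish the lipid, Chpt1, which makes phosphatidylcholine, rose from 28.32 and 26.83 FPKM to 32.01 and 38.54 FPKM, and its log2 fold change of 0.36 (SE 0.0802, edgeR's adjusted p = 0.00224) was 0.23 without risperidone replicate 2 (edgeR's adjusted p = 0.00369) and 0.20 after rescaling to TPM (limma's adjusted p = 0.0826). Cept1, which uses either head group, had 22.83 and 23.56 FPKM with DMSO and 20.42 and 19.62 FPKM with risperidone. Its log2 fold change of -0.12 missed the threshold (edgeR's adjusted p = 0.0932) and was called lower with offsets for gene length (-0.16, edgeR's adjusted p = 0.0240) and with library size as the only scaling (-0.21, edgeR's adjusted p = 0.00793). Chpt1 made up 55.4% and 53.2% of the summed FPKM of both transferases with DMSO and 61.1% and 66.3% with risperidone.

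**Figure D3:**
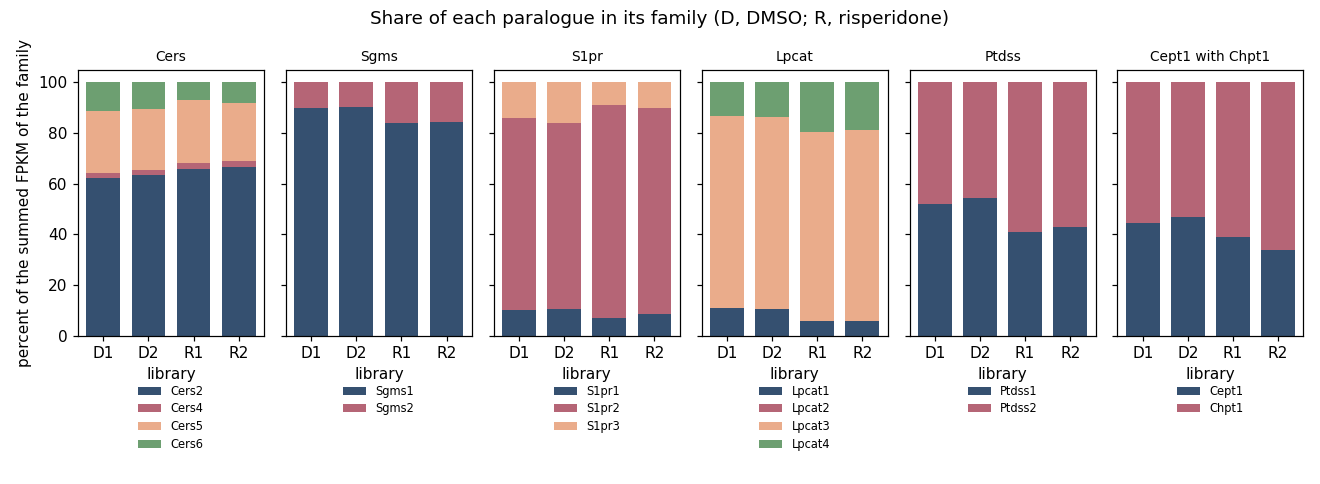
Percent of the summed FPKM of 6 gene families (y axis) held by each paralogue in each library (x axis, D1 and D2 for DMSO, R1 and R2 for risperidone). The bars show the higher part of Sgms2, Lpcat4, Ptdss2 and Chpt1 and the lower part of Cers6, S1pr3 and Lpcat1 in both risperidone libraries, while Lpcat2 is too low to be seen.

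The phosphatidylserine synthases exchanged their order. Ptdss1, which uses phosphatidylcholine as its substrate, had 22.43 and 23.36 FPKM with DMSO and 17.26 and 18.14 FPKM with risperidone. Ptdss2, which uses phosphatidylethanolamine, had 20.74 and 19.55 FPKM with DMSO and 25.15 and 24.14 FPKM with risperidone. Ptdss1 was thus the larger part of the pair in both DMSO libraries (52.0% and 54.4%) and the smaller in both risperidone libraries (40.7% and 42.9%). Their sum stayed between 42.28 and 43.17 FPKM in the 4 libraries. The log2 fold changes were -0.28 for Ptdss1 (SE 0.0621, edgeR's adjusted p = 0.00251) and 0.38 for Ptdss2 (SE 0.0646, edgeR's adjusted p = 0.000354). After rescaling to TPM, limma put Ptdss2 at 0.14 on the log2 scale (adjusted p = 0.0703). Pisd, the mitochondrial decarboxylase that turns phosphatidylserine into phosphatidylethanolamine, fell from 29.05 and 28.62 FPKM to 23.17 and 23.94 FPKM, a log2 fold change of -0.21 (SE 0.0626, edgeR's adjusted p = 0.0133, or 0.0641 with DESeq2).

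Of the genes for CDP-diacylglycerol and for cardiolipin, the lipid of the inner mitochondrial membrane, Cds2 rose. Cds2, a CDP-diacylglycerol synthase of the endoplasmic reticulum, had 19.39 and 17.53 FPKM with DMSO and 22.43 and 22.49 FPKM with risperidone, a log2 fold change of 0.37 (SE 0.0523, edgeR's adjusted p = 0.00011), which after rescaling to TPM was 0.14 (limma's adjusted p = 0.117). Tamm41, which is not among the 40 genes and makes CDP-diacylglycerol in mitochondria, had 11.41 and 10.63 FPKM with DMSO and 10.45 and 10.87 FPKM with risperidone, and did not pass the test (log2 fold change 0.05, edgeR's adjusted p = 0.720). Pgs1, the phosphatidylglycerophosphate synthase, had 24.67 and 23.88 FPKM with DMSO and 23.70 and 22.32 FPKM with risperidone, and the log2 fold change was 0.02 (95% interval -0.12 to 0.17). Crls1, the cardiolipin synthase, had 13.57 and 15.67 FPKM with DMSO and 14.16 and 13.95 FPKM with risperidone, and the log2 fold change was -0.08 (95% interval -0.29 to 0.13). The values of Crls1 overlapped between treatments, and those of Pgs1 did not, but neither gene passed edgeR's test.

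Among the lysophospholipid acyltransferases the changes ran in opposite directions. Lpcat4 (NCBI Gene 99010, chr2:112239841-112247111) had 15.73 and 16.48 FPKM with DMSO and 26.13 and 25.34 FPKM with risperidone, the largest increase of the 39 genes with a log2 fold change of 0.77 (SE 0.0593, edgeR's adjusted p = 1.15e-06). Lpcat1 (NCBI Gene 210992, chr13:73467231-73516420), known for saturated phosphatidylcholine in lung surfactant and at lipid droplets, fell from 13.00 and 12.80 FPKM to 7.51 and 8.0 FPKM, a log2 fold change of -0.65 (SE 0.0706, edgeR's adjusted p = 1.38e-05). With any 1 library left out these values lay between 0.74 and 0.81 for Lpcat4 and between -0.66 and -0.64 for Lpcat1. Their shares of the summed Lpcat FPKM moved from 13.2% and 13.6% to 19.6% and 18.7% for Lpcat4 and from 10.9% and 10.6% to 5.64% and 5.89% for Lpcat1.

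Lpcat3, which places polyunsaturated chains and is a target of LXR in liver and gut, dominated the family. It had 90.48 and 91.79 FPKM with DMSO and 99.55 and 102.42 FPKM with risperidone, and its share lay between 74.7% and 75.9% in all 4 libraries. Its log2 fold change was 0.18 (SE 0.0445, edgeR's adjusted p = 0.00446), but 0.09 with library size as the only scaling (edgeR's adjusted p = 0.118) and 0.00 after rescaling to TPM. Lpcat2, the form of inflammatory cells, had 1 and 2 counts with DMSO and 1 and 0 with risperidone, and was not tested. Pla2g15, the lysosomal phospholipase A2, had 47.89 and 45.93 FPKM with DMSO and 47.07 and 43.84 FPKM with risperidone, and its log2 fold change was 0.05 (95% interval -0.07 to 0.17).

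The other genes of these pathways, 103 in number, were tallied from lists written from general knowledge, and 75 of them passed the limit on FPKM. The deposited table held 44 of the 47 listed sphingolipid genes and all 56 listed glycerophospholipid genes. Of 28 tested sphingolipid genes 11 rose and 11 fell, or 39.3% each against the 32.1% and 32.2% of all genes tested, with a median log2 fold change of 0.05. Among the 5 largest changes at a mean of 5 FPKM or more and without overlap between treatments were decreases of Plpp1 (-0.95), a lipid phosphate phosphatase that also acts on sphingosine 1-phosphate, and of Sptssa (-0.54), a small activating subunit of serine palmitoyltransferase. Increases among them were those of Arsa (0.59), the arylsulfatase that degrades sulfatide, and Gltp (0.56), a glycolipid transfer protein. Sptssa measured 34.0 ± 1.12 FPKM with DMSO and 21.8 ± 1.34 FPKM with risperidone (mean ± SD of 2 libraries per treatment), and Arsa 40.8 ± 1.11 and 57.5 ± 1.26 FPKM. For each of these genes the largest edgeR adjusted p with any 1 library left out was 0.000155 or less.

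Of 47 tested glycerophospholipid genes outside the 40, 17 rose and 16 fell, or 36.2% and 34.0%, near those of all genes tested, with a median log2 fold change of 0.00. Among those with a mean of 5 FPKM or more and no overlap between treatments, the 5 largest changes were the decreases of Plpp6 (-0.91), a phosphatase of presqualene diphosphate, Gdpd1 (-0.79), a lysophospholipase D, Lypla1 (-0.61), an acyl-protein thioesterase first described as a lysophospholipase, and Agpat2 (-0.58), which acylates lysophosphatidic acid, and 1 increase. Agpat2 had 27.2 ± 1.98 FPKM with DMSO and 17.0 ± 1.10 FPKM with risperidone (mean ± SD of 2 libraries per treatment). The increase was that of Pla2g12a (0.57), a secreted phospholipase A2. Leaving out any 1 library kept each of these 5 at an adjusted p of 0.000388 or less in edgeR's test.

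The calls were also made with other treatments of gene length and scale. With offsets that remove trends with gene length, 26 of the 28 calls stood, and Ugcg and Sgpl1 were lost. With edgeR after TMM, 11 of the 39 were higher and 17 lower, with limma on log2(FPKM + 1) 8 and 20, and with limma on log2(TPM + 1) 2 (Smpd2 and Lpcat4) and 26. The share of higher calls among all genes was 49.9%, 37.8% and 22.5% in these fits, which differ in the test and the scale, and the median of all genes was 0.00, -0.08 and -0.22. The median of the 39 was -0.30 in the fit on TPM. That fit also called Sptlc2, Cers2, Cers5, Degs1, Sphk2, Sgpp1, Cept1, Pgs1 and Pla2g15 lower, which edgeR after TMM did not. In every alternative that gave them a value, 12 of the 28 kept their call and direction, namely the decreases of Sptlc1, Kdsr, Cers6, Sgms1, S1pr3, Etnk1, Chka, Pcyt1a, Ptdss1 and Lpcat1 and the increases of Smpd2 and Lpcat4. Besides Sphk2, exons of Ptdss1 overlap those of Mterf3 by 154 bases, of Cers2 those of Setdb1 by 75 bases and of Lpcat3 those of Emg1 by 38 bases, all on opposite strands, and exons of 13 more of the 40 genes, Pcyt1a (567 bases, Slc51a) and Chpt1 (420 bases, Sycp3) among them, overlap other annotated genes. Slc51a had 0 to 7 counts and Sycp3 2 to 6 counts per library.

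**Figure D4:**
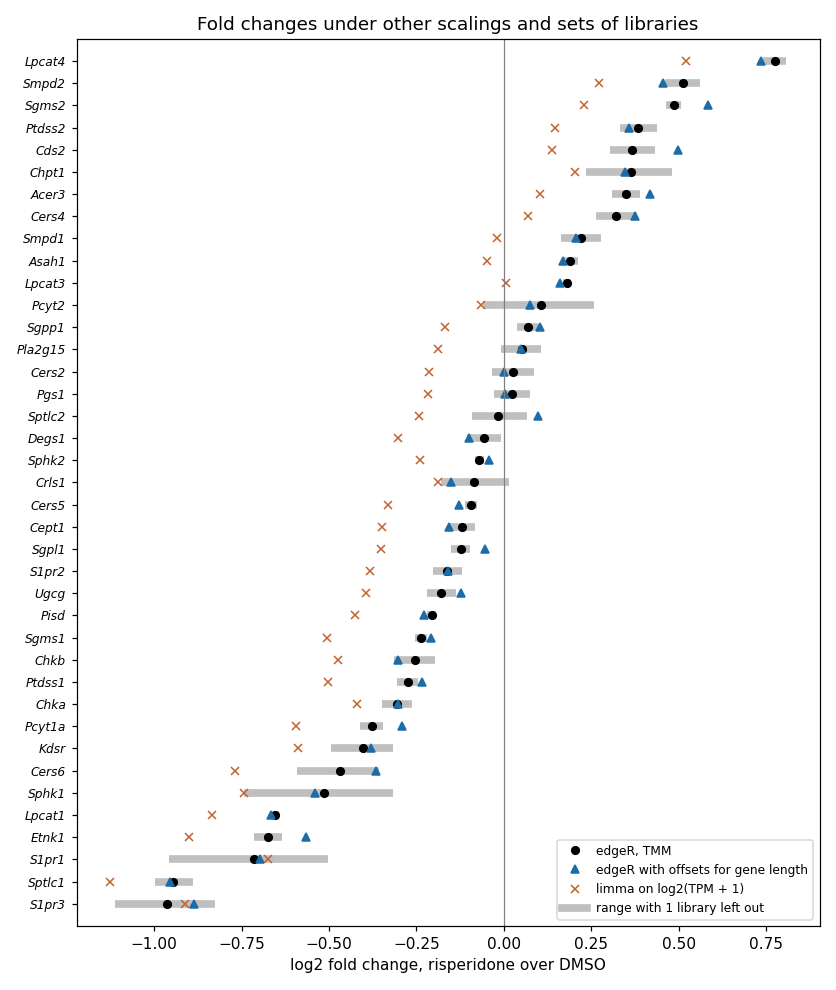
Log2 fold change of risperidone over DMSO (x axis) of the 39 tested genes (y axis) from edgeR with TMM (circles), edgeR with offsets for gene length (triangles) and limma on log2(TPM + 1) (crosses). Grey bars span the edgeR values with each of the 4 libraries left out in turn. The crosses lie left of the circles for nearly all genes, and Smpd1, Asah1, Cers2, Sgpp1, Pcyt2, Pgs1 and Pla2g15 cross 0.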

How the data were processed

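The libraries (2 DMSO, 2 risperidone) were cleaned and mapped by the authors. The submitters' processing notes name Bowtie2, RSEM, DESeq2 and GRCm38.p6 without versions or roles. The table deposited by the authors gives, per gene, estimated counts (not normalized, of which 91.2% to 91.7% per library are whole numbers), FPKM, and TPM with equal library sums. The strandedness of the libraries and the counting settings are not given in the sources used here. The authors' group means were not used.

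Counts were rounded and compared by the quasi-likelihood F-test of edgeR 4.0.16 under R 4.3.3 (TMM, two-sided, Benjamini-Hochberg over the 10243 genes averaging 1 FPKM or more). Each standard error is the size of the log2 fold change over the square root of F. Gene lengths for the offsets came from the deposited counts and FPKM. DESeq2 1.42.0 and limma 3.58.1 on log2(FPKM + 1), log2(FPKM + 0.1) and log2(TPM + 1), other filters and scalings, a replicate block and each library left out served as alternatives. Offsets for length with GC content (GENCODE M21) and crossed replicate numbers were added after the data were seen. The edgeR test, DESeq2, a limma fit and the offsets were tested on simulated data, where a trend with gene length gave the edgeR test many false calls without the length offset and few with it. The simulation changed 200 of 10243 genes, whereas 64.3% of the genes tested were called in the data. It therefore does not show how the fits behave when so many genes change. A count of 0 allows 3 counts, or 0.183 to 0.189 CPM, which covers counting error only, and p-values measure only the spread between these libraries. The labels do not say that equal replicate numbers pair libraries.

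The members and lists were chosen with earlier results of these data known. Named genes are the 40 members and, from each list of other pathway genes, the 5 called genes with the largest changes whose FPKM averaged 5 or more and did not overlap between DMSO and risperidone, of which 1 is not reported here. Of the lists of markers, those of macrophages (summed 10.1 to 14.8 FPKM) and endothelium (0.13 to 0.92 FPKM) are not discussed further. Tamm41 and Ly6a were chosen after their values were seen. Protein sequences were not analysed here.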

Additional observations from a re-analysis of the deposited data

How the results depend on the processing

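All values are at an adjusted p under 0.05 or are log2 fold changes. The counts of sphingolipid genes, 6 higher and 10 lower, became 3 higher with limma on log2(FPKM + 1) or log2(FPKM + 0.1), 1 higher and 16 lower with TPM, 6 lower without a filter and 5 lower with DESeq2. Leaving out 1 library gave 5 to 6 higher and 5 to 9 lower. The 5 higher glycerophospholipid genes became 1 with TPM, and the 7 lower were 6 to 7 with 1 library left out. For all genes TPM gave 1536 higher and 5292 lower, against 3287 and 3303. The 28 higher genes among the other pathway genes were 17 with library size only, 16 with either limma fit on FPKM and 8 with TPM, and 22 to 27 with 1 library left out. The cause of these shifts was not tested. Over all genes FPKM summed to 482767 and 487207 with DMSO and to 546060 and 525448 with risperidone, whereas TPM has equal library sums. In 32 cases a member changed sign, and among called members only Smpd1 and Asah1 did, with TPM. With library size only the values were Cers2 -0.066, Sgpp1 -0.025, Pgs1 -0.070 and Pla2g15 -0.043, with limma on log2(FPKM + 1) Cers2 -0.071, Sgpp1 -0.027, Pgs1 -0.074 and Pla2g15 -0.045, and on log2(FPKM + 0.1) Cers2 -0.072, Sgpp1 -0.028, Pgs1 -0.077 and Pla2g15 -0.046. With TPM they were Cers2 -0.215, Smpd1 -0.019, Asah1 -0.048, Sgpp1 -0.167, Pcyt2 -0.066, Pgs1 -0.216 and Pla2g15 -0.188. The length offset gave Sptlc2 0.099 and Cers2 -0.0009, length with GC Sptlc2 0.111 and Pgs1 -0.021, and a limit of 5 FPKM Pgs1 -0.0011. With 1 library left out, the ranges were Sptlc2 from -0.093 to 0.065, Cers2 from -0.035 to 0.087, Pcyt2 from -0.061 to 0.259, Pgs1 from -0.027 to 0.073, Crls1 from -0.179 to 0.016 and Pla2g15 from -0.0070 to 0.107. Same-numbered libraries deviated with a correlation of -0.156 across genes. With 2 libraries per treatment, this value cannot decide whether the numbers pair them. A replicate block gave 3292 higher and 3321 lower genes and 11 higher and 15 lower members, without Sgpl1 (adjusted p = 0.0737) and S1pr2 (0.0817, both from edgeR). Crossed numbers gave 3474 and 3519 genes and 11 and 16 members. Without risperidone replicate 2, Sptlc2 (0.018), Cers2 (-0.035) and Pcyt2 (-0.061) changed sign. Depth limits S1pr1, S1pr3, Sphk1 and Pcyt2, each under 200 counts a library.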

Other observations

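Some genes of these pathways lay under the limit of 1 FPKM and entered no comparison. Cers1, a ceramide synthase, had 23 and 26 counts with DMSO and 7.89 and 7.68 with risperidone. Smpdl3a, a paralogue of the acid sphingomyelinase, had 3 and 2 counts with DMSO, 0 in risperidone replicate 1 and 48 in risperidone replicate 2, the library with kidney tubule transcripts. Stard10, a phospholipid transfer protein that just passed the limit, had 9 and 9 counts with DMSO, and with risperidone 7 in replicate 1 and 54 in replicate 2. Its log2 fold change of 1.84 (edgeR's adjusted p = 0.0446) was -0.27 without that last library (edgeR's adjusted p = 0.762). Crx, on the retina list, had 1 and 2 counts with DMSO and 41 and 35 with risperidone. These genes were chosen after their values were seen.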
